A study of Mus musculus and Homo sapiens with 33 samples.

Results

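DNA replication and S-phase genes were followed in 2 lung cancer lines that overexpressed a circular RNA made from the EMSY gene. The set holds 54 genes, chosen by symbol: the human symbols in the H358 table and the same letters in mouse case in the LLC1 table. All 54 were among the 20347 genes of the H358 table, and 32 were among the 2509 rows of the LLC1 table. LLC1 is a mouse lung carcinoma line and was sampled with cEmsy overexpression and, against it, with an empty vector (EV, labelled WT). H358, from a human lung cancer of the non-small-cell kind, was sampled with cEMSY overexpression and, against it, with an empty vector (EV, labelled WT). Each of the 4 groups had 3 libraries of total RNA depleted of ribosomal RNA, 12 of the 33 libraries of the series. The other 21 are LLC1 libraries from a drug panel sampled at 48 h, 3 from each of 7 groups: bortezomib, dactinomycin, doxorubicin, oxaliplatin, (R)-crizotinib plus cisplatin, pemetrexed plus cisplatin, and DMSO as their control. They are used here for circular RNAs of member genes only. The labels number the libraries but name no separate cultures, so each p-value covers the spread between samples only, which may be technical. They do not say whether a line was 1 clone, how long the RNA was expressed or which promoter drove it, and the level of the circular RNA itself was not analysed here in these libraries.

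Before each cell division the genome is copied once. The origin recognition complex, CDC6 and CDT1 load the ring-shaped MCM helicase onto DNA in G1, and CDC45 with the GINS complex switches the helicase on at the start of S phase. Polymerases then copy the strands while a clamp, PCNA, holds them on the template. Transcripts of most of these proteins are known to peak around the G1/S border under the E2F transcription factors, and tumour lines that divide quickly hold them at high levels.

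In both lines most genes of the set were lower with overexpression. In LLC1 all 32 members in the table fell, to between 16.8% and 49.7% of the empty vector mean, with a median of 30.0%, where 52.6% of all 2111 tested rows were called lower (limma, adjusted p under 0.05). In H358, in the authors' deposited table, 38 of 54 fell, 1 rose and 15 did not pass an adjusted p of 0.05, and the median log2 fold change was -0.44, or 73.5% of empty vector. There, 16.8% of all 19154 tested genes were called lower and 15.6% higher. Of the 32 members in both tables, 23 fell in both lines, 8 fell in LLC1 without passing in H358, and E2F2 fell in LLC1 and rose in H358. These are bulk samples, so fewer cells in S phase and less RNA per cell cannot be told apart.

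The background differs between the tables. The LLC1 table holds rows that the authors had called changed. Of its 2483 rows with both means above 0, 97.9% differed by 2-fold or more, so membership in it fixes a change of about that size. The limma p-values of its rows are therefore no separate support for a change. The 22 members outside it have no LLC1 values here, so whether they changed is unknown. Of its tested rows 47.3% were called higher with overexpression, and in 99.8% the 2 groups of libraries were apart, with no overlap. Among annotated rows 47.8% were called lower. The H358 table is not restricted to changed genes. Among the 12364 genes with a mean signal of 50 or more, a level that every member exceeds, 25.6% were called lower and 20.2% higher.

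The mouse promoters of the members were searched for letters of 2 cell-cycle elements. Upstream sequences from genes with at least 2 matches before the start site are shown. The members had been chosen by symbol as replication and S-phase genes. A link between matches and the size or direction of a change was not tested. RefSeq promoter windows (GRCm38.p6, 250 bases before to 50 after each annotated start) matched 43 of the 54 members, with 51 windows. Capitals mark the E2F letters GCGGGAA or TTGGCGC, read on either strand. Each line gives the 250 bases before the start, 5′ to 3′ on the gene's strand, for Pola1 (chrX:93632156-93632405, minus strand) and Mcm6 (chr1:128359706-128359955, minus strand).
Pola1: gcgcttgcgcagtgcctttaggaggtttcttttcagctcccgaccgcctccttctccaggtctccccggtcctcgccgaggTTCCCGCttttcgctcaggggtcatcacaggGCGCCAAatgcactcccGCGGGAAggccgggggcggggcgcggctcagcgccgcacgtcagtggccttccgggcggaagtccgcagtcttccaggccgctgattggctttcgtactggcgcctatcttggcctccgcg
Mcm6: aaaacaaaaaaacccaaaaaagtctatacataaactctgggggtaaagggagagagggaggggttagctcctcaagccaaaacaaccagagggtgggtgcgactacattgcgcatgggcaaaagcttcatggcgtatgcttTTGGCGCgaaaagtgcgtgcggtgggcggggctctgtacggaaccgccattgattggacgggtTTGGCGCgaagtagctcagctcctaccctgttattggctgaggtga

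Pola1 encodes the catalytic subunit of DNA polymerase alpha, and its 3 matches began 169, 138 and 121 bases before the start. Mcm6 and Mcm5 encode subunits of the helicase, and each had 2 matches, which began 109 and 46 bases before the start in Mcm6 and 164 and 149 in Mcm5, whose sequence is not shown. Over the whole 300-base windows, 26 of 51 member windows (51.0%) held at least 1 E2F match, in 25 genes. The same letters stood in 5 of 31 windows of mitosis genes (16.1%) and in 2236 of all 32851 windows (6.81%). TTTGAA is the core of the cell cycle genes homology region (CHR) known from mitosis genes. On either strand it stood in 23 of 31 mitosis gene windows (74.2%) and in 7 of 51 member windows (13.7%). The member share was somewhat below the 17.9% of all windows. The E2F motifs did not overlap each other or TTTGAA in any member window. GCGGGAA alone was found in 33.3% of member windows and TTGGCGC in 25.5%, against 4.6% and 2.45% of all windows. A match is a description of the letters and not a binding site.

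**Figure D1:**
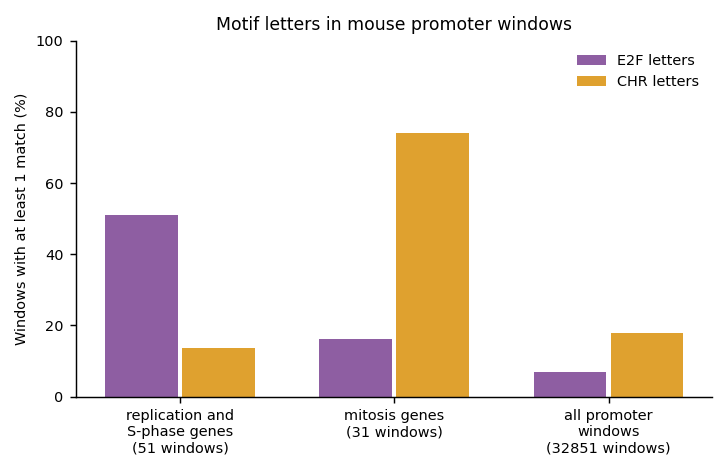
Share of mouse promoter windows of 300 bases with at least 1 match to the E2F letters (GCGGGAA or TTGGCGC) or the CHR letters (TTTGAA), in percent, for replication and S-phase genes, mitosis genes and all windows. E2F letters stand in 51.0% of the first set and CHR letters in 74.2% of the second.

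The MCM2-7 helicase, which unwinds DNA at the fork, fell in both lines. In LLC1, values are the authors' signal per library, of unnamed unit and already scaled, and differences were tested with limma on log2(value + 1), which understates changes of low genes. Mcm5 stood at 6.02, 6.004 and 4.34 in the cEmsy overexpression libraries, against 30.2, 30.9 and 30.7 in the empty vector libraries, a log2 difference of -2.30 ± 0.11 (SE, adjusted p = 2.75e-08, limma). Mcm2 stood at 9.36, 9.72 and 8.65 with overexpression, against 35.7, 35.3 and 36.3 with empty vector. Every overexpression library was below every empty vector library for both genes, and the third overexpression library was the lowest. In 99.8% of the tested LLC1 rows the groups did not overlap. Mcm3 averaged 11.4 ± 0.806 with overexpression and 44.5 ± 1.21 with empty vector (SD, n = 3 each), and Mcm4 averaged 8.56 ± 0.847 with overexpression and 25.1 ± 1.25 with empty vector (SD, n = 3 each). Mcm6 had the smallest difference of the 5 listed subunits, with 7.57, 9.63 and 9.20 in overexpression libraries and 19.8, 23.1 and 19.3 in empty vector libraries, or 42.4% of the empty vector mean. Mcm7 was not among the listed LLC1 rows.

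All 6 subunits also fell in H358, where 16.8% of all tested genes were called lower. No values per library were used for this line: each value is the authors' log2 fold change with its standard error and adjusted p. MCM6 fell by 0.69 (SE 0.06, adjusted p = 4.19e-28 in the authors' deposited table) and was the largest change of the 6, whereas it was the smallest of the listed subunits in LLC1. MCM3 fell least, by 0.38 (SE 0.08), per the authors' deposited table, with MCM2 at -0.61, MCM4 at -0.57, MCM5 at -0.53 and MCM7 at -0.43. The 6 subunits thus stood between 61.8% and 76.8% of empty vector.

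**Figure D2:**
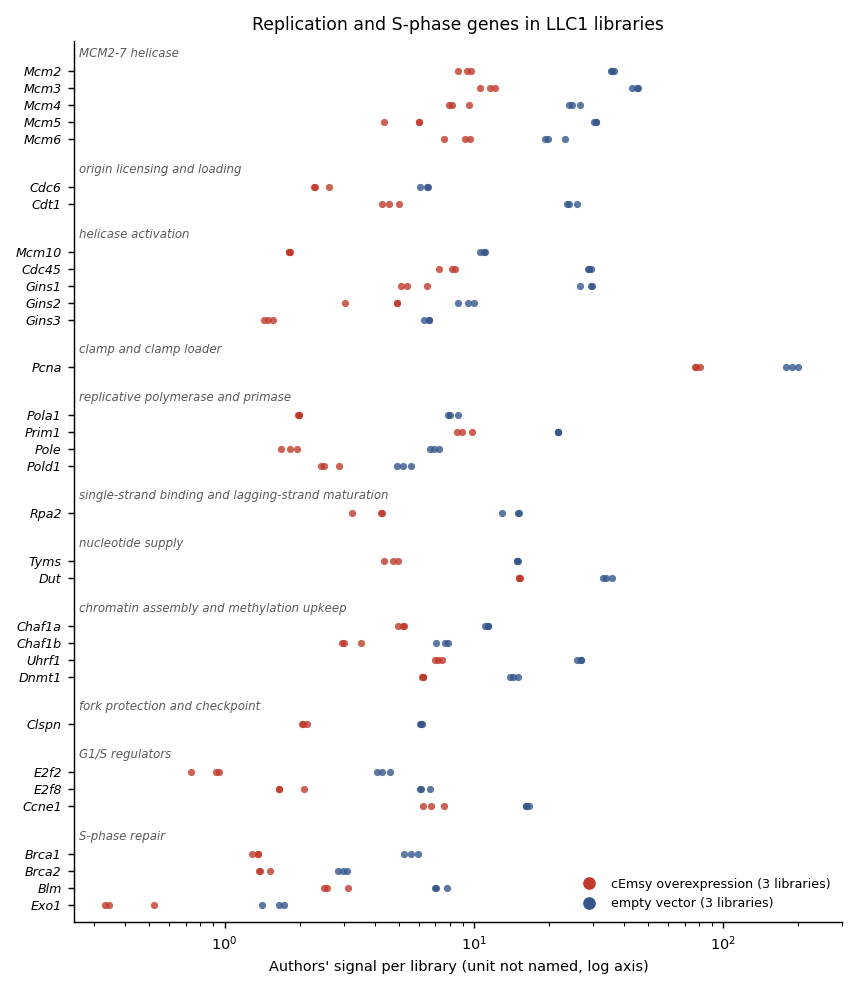
Authors' signal (log axis, unit not named) of the 32 members in the LLC1 table, by role. Each point is 1 library, with the 3 cEmsy overexpression libraries in red and the 3 empty vector libraries in blue. In all 32 rows the groups do not overlap, as in 99.8% of the tested rows of that table.

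Origin licensing genes moved unequally. Cdt1, whose product brings the MCM ring to origins, stood at 5.02, 4.57 and 4.29 in LLC1 overexpression libraries, against 24.0, 23.6 and 25.9 in empty vector libraries (log2 difference -2.18 ± 0.08 SE, adjusted p = 6.56e-09, limma). It was thus at 18.9% of the empty vector mean, among the lowest of the set. In H358 CDT1 did not pass: its log2 fold change was -0.19 (SE 0.12, adjusted p = 0.237 in the authors' deposited table), with a 95% interval from -0.43 to 0.05. Cdc6, the loading ATPase, stood at 2.29, 2.30 and 2.62 in LLC1 overexpression libraries and at 6.54, 6.49 and 6.08 in empty vector libraries. CDC6 fell by 0.46 (SE 0.07), ORC1 by 0.67 (SE 0.10) and ORC6 by 0.45 (SE 0.10) in H358, per the authors' deposited table. The last 2 encode subunits of the origin recognition complex, and their mouse genes were not among the listed LLC1 rows.

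Helicase activation genes held some of the strongest falls of the set in both lines. Mcm10, which promotes assembly of the active helicase, stood at 1.81, 1.82 and 1.82 in LLC1 overexpression libraries, against 11.0, 11.0 and 10.5 in empty vector libraries. At 16.8% it had the lowest remaining share of the 32 members, with a log2 difference of -2.07 ± 0.07 (SE, adjusted p = 6.52e-09, limma). Gins1, a subunit of the GINS complex, stood at 5.11, 6.48 and 5.37 in overexpression libraries and at 26.5, 29.8 and 29.4 in empty vector libraries. In H358 GINS1 and GINS2 fell by 0.86 (SE 0.09) and 0.79 (SE 0.11), per the authors' deposited table, MCM10 by 0.60 and CDC45 by 0.53. Gins2 varied more in LLC1: overexpression libraries stood at 4.90, 4.90 and 3.03, against 8.66, 9.97 and 9.49 in empty vector libraries. The groups still did not overlap, as in 99.8% of tested LLC1 rows, and the third overexpression library was well below the other 2. Cdc45 and Gins3 averaged 7.96 ± 0.616 and 1.50 ± 0.0571 with overexpression, against 29.0 ± 0.324 and 6.49 ± 0.164 with empty vector (SD, n = 3 each). GINS3 fell by 0.33 in H358 (adjusted p = 0.0431 in the authors' deposited table), while GINS4 was at -0.04 (SE 0.12, adjusted p = 0.845 in the same table).

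PCNA, the sliding clamp that tethers polymerases, differed in outcome between the tables. Pcna stood at 80.6, 76.8 and 77.9 in LLC1 overexpression libraries, against 179, 199 and 189 in empty vector libraries, or 41.5% of the empty vector mean (log2 difference -1.26 ± 0.06 SE, adjusted p = 4.89e-08, limma). In H358 its log2 fold change was -0.14 (SE 0.07, adjusted p = 0.108 in the authors' deposited table) and did not pass; its 95% interval lay just below 0, and its mean signal was 7485. Taken relative to the median of all genes tested, 0.03, it passed at -0.17 (adjusted p = 0.048). The clamp loader, which opens the ring and sets it on DNA, changed unequally in H358. RFC3 fell by 0.92 (SE 0.08), per the authors' deposited table, RFC2 and RFC5 by 0.33 each (SE 0.09 each), and RFC4 stood at -0.12 (SE 0.12, adjusted p = 0.465 in the same table). The mouse loader genes were not among the listed LLC1 rows.

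Polymerase and primase genes had the lowest share of H358 calls among the core replication roles, 3 of 7. Among all genes tested in that line, 16.8% were called lower. All 4 members listed in LLC1 fell, where 52.6% of tested rows were called lower. Pola1 stood at 1.99, 1.96 and 1.99 in LLC1 overexpression libraries, against 8.04, 7.90 and 8.65 in empty vector libraries. Pole, the catalytic subunit of the leading-strand polymerase epsilon, stood at 1.94, 1.68 and 1.82 with overexpression and at 6.68, 7.21 and 6.94 with empty vector (log2 difference -1.50 ± 0.08 SE, adjusted p = 6.98e-08, limma). In H358 POLE was at 0.05 (SE 0.09, adjusted p = 0.725 in the authors' deposited table), with a 95% interval from -0.12 to 0.22. The RNA primer subunit Prim1 averaged 9.12 ± 0.65 with overexpression and 21.6 ± 0.0139 with empty vector in LLC1 (SD, n = 3 each). PRIM1 was at -0.09 (SE 0.10, adjusted p = 0.513) in H358, while its partner PRIM2 fell by 0.53 (SE 0.14), both per the authors' deposited table. Pold1, the catalytic subunit of polymerase delta, kept the highest share of the 32 in LLC1, 49.7%, and POLD1 fell by 0.30 (SE 0.09) in H358 in the authors' deposited table. POLA1 fell by 0.32 (SE 0.08) in that table, and POLA2 and POLE2 did not pass at -0.28 (SE 0.19) and -0.30 (SE 0.15).

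Among genes for single-strand binding and for joining lagging-strand fragments, Rpa2 was the member listed in LLC1. It stood at 4.28, 4.22 and 3.25 in overexpression libraries, against 12.9, 15.1 and 15.1 in empty vector libraries. In H358 RPA2 fell by 0.55 (SE 0.09), the flap nuclease gene FEN1 by 0.55 (SE 0.08), the ligase gene LIG1 by 0.49 (SE 0.09) and RPA1 by 0.41 (SE 0.10), per the authors' deposited table. RPA3 did not pass, at -0.14 (SE 0.14, adjusted p = 0.487 in the authors' deposited table).

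All 5 members that supply deoxynucleotides fell in H358, where 16.8% of all tested genes were called lower. RRM2, the small subunit of ribonucleotide reductase that limits deoxynucleotide supply, fell by 1.00 (SE 0.06, adjusted p = 1.51e-61 in the authors' deposited table) to 49.9% of empty vector. It was the only member of the 54 to fall by 2-fold or more in that line, where 2.87% of tested genes passed with such a fall. TK1, the salvage kinase for thymidine, fell by 0.77 (SE 0.09), TYMS, which makes thymidylate, by 0.49 (SE 0.07) and the large reductase subunit RRM1 by 0.41 (SE 0.06), per the authors' deposited table. DUT, which removes dUTP from the pool, fell least, by 0.28 (SE 0.11, adjusted p = 0.0372 in the authors' deposited table). In LLC1, Tyms stood at 4.76, 4.35 and 4.95 in overexpression libraries and at 14.9, 14.9 and 15.0 in empty vector libraries. Dut stood at 15.2, 15.2 and 15.3 with overexpression, against 32.8, 35.7 and 33.7 with empty vector. Both genes fell without overlap, as 99.8% of tested LLC1 rows had none, and Dut kept the larger share, 44.7% against 31.4% for Tyms.

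Genes that rebuild chromatin behind the fork were the role with every member listed in LLC1, 4 of 4. Uhrf1, which recognises hemimethylated DNA after replication and recruits the methyltransferase, stood at 6.99, 7.20 and 7.47 in LLC1 overexpression libraries, against 26.9, 26.8 and 25.9 in empty vector libraries (log2 difference -1.74 ± 0.06 SE, adjusted p = 8.23e-09, limma). Dnmt1, that methyltransferase, stood at 6.22, 6.22 and 6.25 with overexpression and at 14.0, 14.3 and 14.9 with empty vector. The histone chaperone subunits Chaf1a and Chaf1b kept 45.5% and 42.0% of their empty vector means. In H358 UHRF1 fell by 0.65 (SE 0.07), DNMT1 by 0.57 (SE 0.12) and CHAF1B by 0.30 (SE 0.11), per the authors' deposited table. CHAF1A was at -0.21 (SE 0.09, adjusted p = 0.0646 in the same table), and passed at 0.0483 among genes with a mean signal of 50 or more. Both members that protect stalled forks fell in H358, where 16.8% of all tested genes were called lower. CLSPN, which links the fork to the checkpoint kinase, fell by 0.86 (SE 0.13) and TIPIN by 0.42 (SE 0.11), per the authors' deposited table. Clspn averaged 2.08 ± 0.0485 with overexpression and 6.14 ± 0.0802 with empty vector in LLC1 (SD, n = 3 each).

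**Figure D3:**
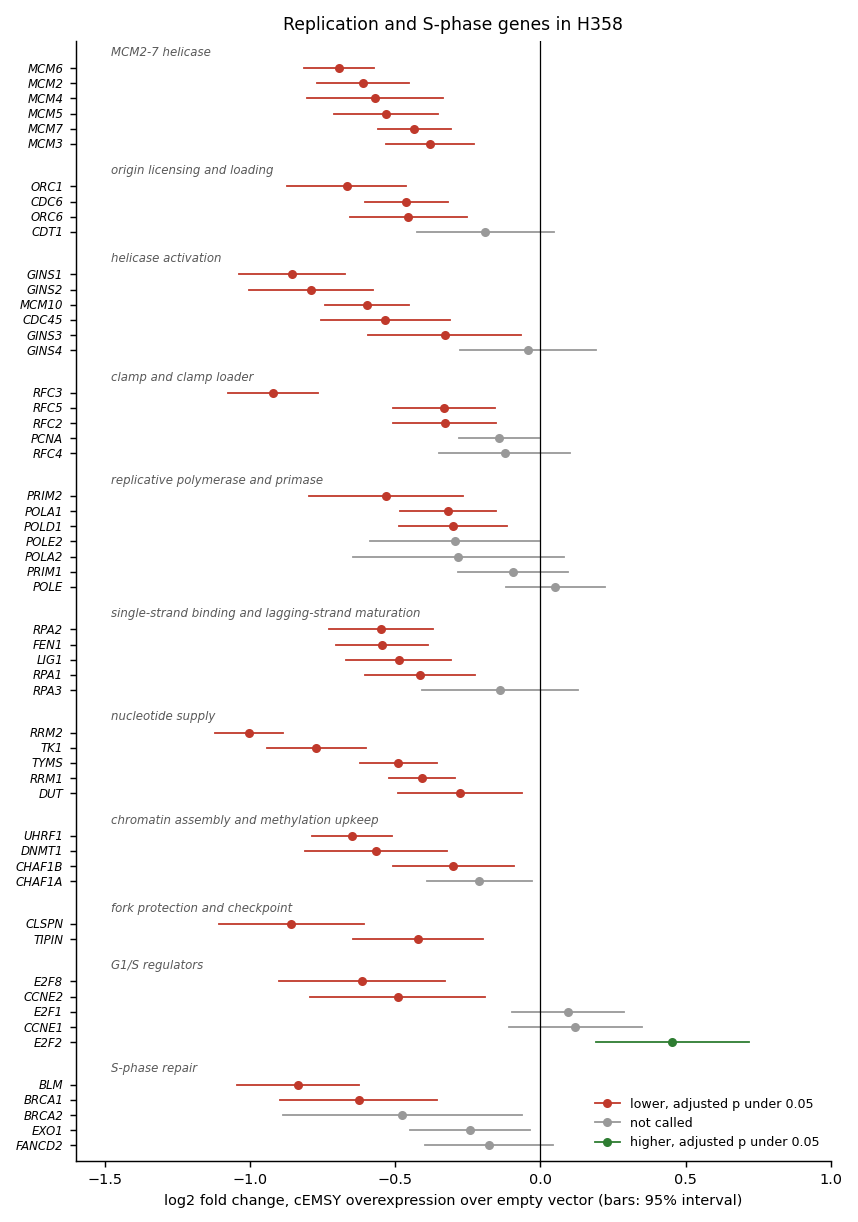
Log2 fold change of the 54 members in H358, cEMSY overexpression over empty vector, in the authors' deposited table, ordered by size within each role. Points are the fold changes and bars their 95% intervals (1.96 standard errors). The 38 red genes fell, E2F2 in green rose, and the 15 grey genes did not pass.

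G1/S regulators were the role with calls in both directions in H358. E2F2, a transcription factor that activates S-phase genes, rose by 0.45 (SE 0.13, adjusted p = 0.00354 in the authors' deposited table), while E2F8, an atypical family member that represses them, fell by 0.61 (SE 0.15). E2F1 was at 0.10 (SE 0.10, adjusted p = 0.512) and CCNE1, cyclin E1, which activates CDK2 at the G1/S border, at 0.12 (SE 0.12, adjusted p = 0.487), both per the authors' deposited table. The second cyclin E gene, CCNE2, fell by 0.49 (SE 0.15) in that table. In LLC1 the 3 listed regulators all fell, where 52.6% of tested rows were called lower. E2f2 stood at 0.924, 0.950 and 0.731 in overexpression libraries, against 4.26, 4.08 and 4.62 in empty vector libraries (log2 difference -1.51 ± 0.09 SE, adjusted p = 1.26e-07, limma). E2f8 stood at 1.65, 2.08 and 1.65 with overexpression and at 6.67, 6.15 and 6.06 with empty vector, and Ccne1 at 7.59, 6.70 and 6.26 with overexpression, against 16.2, 16.2 and 16.6 with empty vector. Each of the 3 genes had groups that did not overlap, as did 99.8% of the tested LLC1 rows.

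Repair genes of S phase also fell in LLC1, with 4 of the 5 listed, where 52.6% of tested rows were called lower. Brca1, which acts in repair by homologous recombination, stood at 1.36, 1.29 and 1.36 in overexpression libraries, against 5.94, 5.58 and 5.25 in empty vector libraries. Brca2, which loads the recombinase, averaged 1.43 ± 0.0829 with overexpression and 2.98 ± 0.127 with empty vector (SD, n = 3 each), at 47.9% of it. The helicase gene Blm averaged 2.73 ± 0.336 with overexpression and 7.29 ± 0.47 with empty vector (SD, n = 3 each). The nuclease gene Exo1 averaged 0.398 ± 0.106 with overexpression and 1.60 ± 0.167 with empty vector (SD, n = 3 each). Exo1 had the widest spread of the 32 relative to its mean in both groups, 26.7% with overexpression and 10.5% with empty vector. In H358 BLM fell by 0.83 (SE 0.11) and BRCA1 by 0.63 (SE 0.14), per the authors' deposited table. BRCA2 (-0.48, SE 0.21), EXO1 (-0.24, SE 0.11) and FANCD2 (-0.18, SE 0.11) did not pass in that table (adjusted p = 0.0673, 0.0647 and 0.24).

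The members of LLC1 varied little within groups. Their median coefficient of variation was 7.49% over the 3 overexpression libraries and 4.34% over the empty vector libraries. The median member stood at 30.8%, 32.2% and 30.2% of its empty vector mean in the 3 overexpression libraries. The third of these was the lowest of its group for 13 of 32 members and the highest for 11, so no library held the low end for most of the set.

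Across the 32 genes in both tables, the LLC1 change was below the H358 change for 28 when the difference itself was tested (t with 8 degrees of freedom, Benjamini-Hochberg over 1115 genes matched by symbol, adjusted p under 0.05), where 43% of matched genes were called that way. The LLC1 rows had been chosen for a change of about 2-fold, which bears on this comparison. The 43% also includes genes that rose in LLC1, whereas all 32 members fell there. The 28 calls are thus not read as particular to the members. For Cdt1 the difference was -1.99 (SE 0.14) on the log2 scale (-2.18 in LLC1 and -0.19 in H358), for E2f2 -1.96 (SE 0.16) and for Mcm5 -1.77 (SE 0.14). The order of these rests on the pseudocount: with log2(value + 0.1) in LLC1 they were -2.19 for Cdt1, -2.65 for E2f2 and -1.95 for Mcm5. CLSPN (-0.36, SE 0.15), BLM (-0.32, SE 0.14), BRCA2 (-0.24, SE 0.22) and GINS2 (-0.20, SE 0.18) did not pass (adjusted p = 0.0555, 0.07, 0.358 and 0.328). Of the 22 members outside the LLC1 table, 15 fell in H358, and their median log2 fold change was -0.42, beside -0.48 for the 32 listed; the difference between these sets was not tested.

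**Figure D4:**
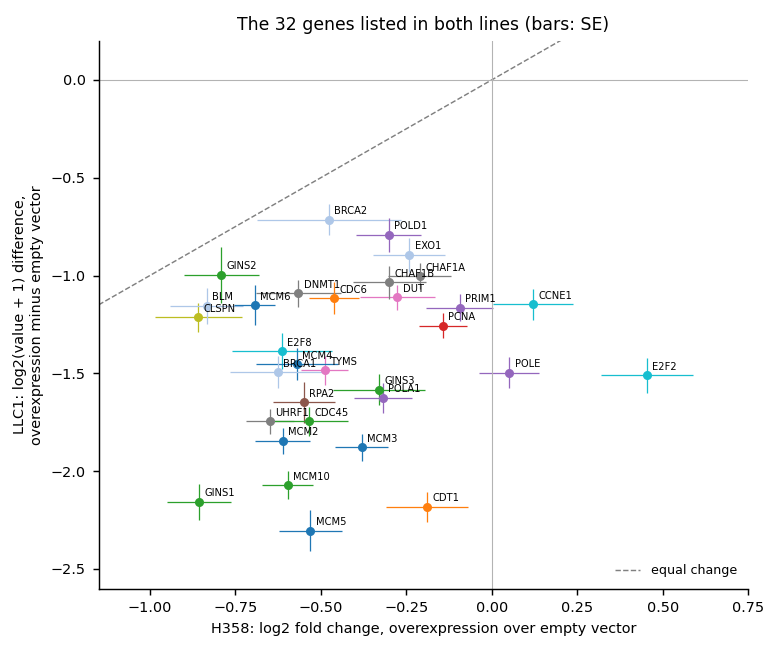
Change of the 32 members found in both tables: the log2(value + 1) difference in LLC1 (vertical) against the authors' log2 fold change in H358 (horizontal), both overexpression against empty vector, with bars of 1 SE and colours by role. All points lie below the dashed line of equal change, and POLE, CCNE1 and E2F2 lie right of 0 in H358.

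Other genes of the pathway, outside the 54, were counted in the same way. Of all H358 genes tested, 16.8% were called lower and 15.6% higher. Of the tested LLC1 rows, which the authors had chosen as changed, 52.6% were called lower and 47.3% higher. Of 35 further replication genes, 22 fell, 1 rose and 12 did not pass in H358 (median -0.35), and all 14 listed in LLC1 fell. Asf1b, a histone chaperone gene, averaged 5.16 ± 0.398 in LLC1 overexpression libraries and 34.1 ± 0.893 in empty vector libraries (SD, n = 3 each). Ticrr, needed to fire origins, averaged 0.907 ± 0.0758 with overexpression and 5.70 ± 0.11 with empty vector (SD, n = 3 each). In H358 POLE3, a small polymerase epsilon subunit, fell by 0.92 (SE 0.08) and TICRR by 0.76 (SE 0.09), while POLD4, a small polymerase delta subunit, rose by 0.61 (SE 0.13), all per the authors' deposited table. Of 16 further nucleotide genes, 10 fell, 2 rose and 4 did not pass in H358 (median -0.29), and of the 6 listed in LLC1 5 fell and 1 rose. DTYMK, the thymidylate kinase gene, fell by 0.83 (SE 0.10) in H358, while RRM2B, the reductase subunit induced by p53, and TK2, the mitochondrial thymidine kinase, rose by 0.47 (SE 0.10) and 0.51 (SE 0.14), per the authors' deposited table. In LLC1 Shmt1, a folate enzyme gene, fell to 18.7% of the empty vector mean. Ctps2, which makes CTP, rose to 198%.

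Of 28 further S-phase repair genes, 18 fell, 1 rose and 9 did not pass in H358 (median -0.49), where 16.8% of all tested genes fell. All 13 listed in LLC1 fell, where 52.6% of tested rows did. FANCB, of the crosslink repair pathway, and BARD1, the partner of BRCA1, fell most in H358, by 1.04 (SE 0.26) and 0.96 (SE 0.13), and FANCF rose by 0.40 (SE 0.15), per the authors' deposited table. Of the recombination genes Xrcc2 fell to 10.6% and Rad51ap1 to 12.3% of the empty vector mean in LLC1.

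The RB-E2F and G1 list split in H358: 26 of its 29 genes were in the table, of which 11 fell, 5 rose and 10 did not pass. Among all genes tested there, 16.8% were called lower and 15.6% higher. CDKN1A, which encodes the CDK inhibitor p21, rose by 1.75 (SE 0.08, adjusted p = 2.79e-98) and CDKN1B, which encodes p27, by 0.64 (SE 0.10), per the authors' deposited table. CCNA2, cyclin A2 of S phase and G2, fell by 0.95 (SE 0.07) and the repressor E2F7 by 0.87 (SE 0.15) in that table. In LLC1 7 of the 8 listed genes fell, where 52.6% of tested rows did. Ccna2 averaged 9.02 ± 0.318 with overexpression and 67.9 ± 2.06 with empty vector (SD, n = 3 each). Rbl2, which encodes the pocket protein p130 of resting cells, rose to 11.7 ± 0.594 with overexpression, against 3.42 ± 0.197 with empty vector (SD, n = 3 each), and RBL2 rose by 0.27 (SE 0.10) in H358 per the authors' deposited table. Its relative Rbl1, p107, which is itself an E2F target, fell to 21.8% in LLC1, and RBL1 fell by 0.84 (SE 0.13) in H358 in the same table.

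Mitosis genes were lower still. In H358 all 34 of the list fell, where 16.8% of all genes tested were called lower. All 34 were also among the LLC1 rows that the authors had chosen as changed. Each was lower there, where 52.6% of tested rows were called lower. Their LLC1 median was 21.3% of the empty vector mean, beside 30.0% for the 32 members. In H358 their median log2 fold change was -0.77, beside -0.44 for the 54 members and 0.03 for all genes tested. Ube2c, whose enzyme ubiquitinates cyclin B and securin late in mitosis, averaged 16.1 ± 0.568 with overexpression and 243 ± 12.4 with empty vector in LLC1 (SD, n = 3 each). In H358 CDC20, the gene of an activator of the anaphase-promoting complex, fell by 1.20 (SE 0.08) and the proliferation marker MKI67 by 0.97 (SE 0.09), per the authors' deposited table. The difference between the lists is a description and was not tested.

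**Figure D5:**
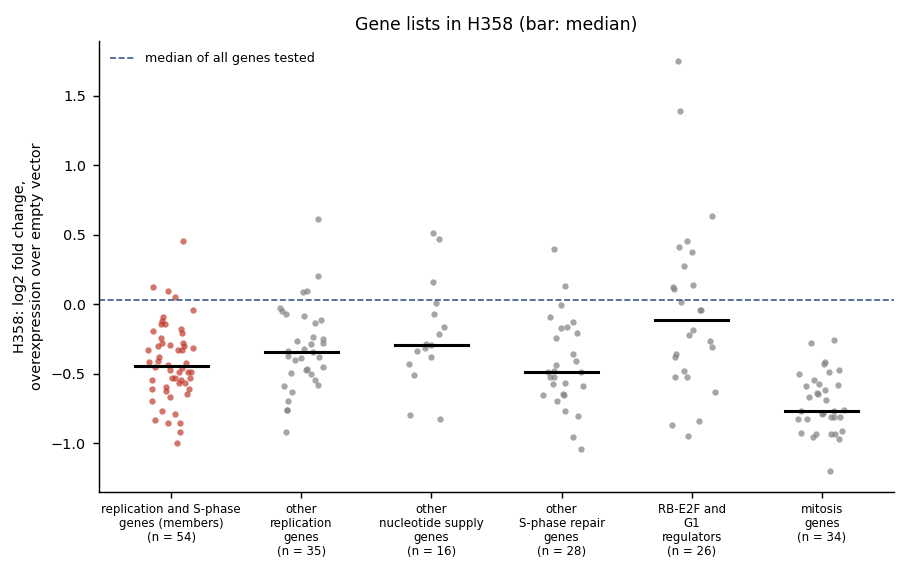
Log2 fold change in H358, cEMSY overexpression over empty vector, for the members and 5 other gene lists, from the authors' deposited table. Each point is a gene, each bar a list's median, and the dashed line the median of all genes tested. The members' median is -0.44 and that of mitosis genes -0.77.

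In the drug panel, which has 6 treatments beside DMSO, 2 of the 472 listed circular RNAs lay in a member gene (GENCODE M21, mm10), and both had ends on exons of 1 transcript. The one in Ccne2 (chr4:11193926-11201416, plus strand, 6 exons) had a signal of 377, 379 and 347 after dactinomycin and of 352, 582 and 0 after oxaliplatin. It was listed at 0 in the other 16 libraries, DMSO included. The one in Pola1 (chrX:93461369-93493581, minus strand, 8 exons) had 2970, 1066 and 738 after crizotinib plus cisplatin. It stood at 960 in 1 of the 3 dactinomycin libraries and was listed at 0 in the other 17. Per the labels, dactinomycin was given at 1 uM, oxaliplatin at 500 uM, crizotinib at 10 uM with cisplatin at 50 uM, bortezomib at 100 nM, doxorubicin at 4 mM, and pemetrexed and cisplatin at 2.5 uM each. The authors had chosen the rows as changed and gave no unit, so these values were not tested. They are levels of circles, not of the host transcripts.

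Checks of the labels gave mixed results in H358. Of 14 epithelial markers 10 were in the table, with mean signals of 41881 for KRT8, 38482 for KRT18 and 31920 for KRT7. KRT19 was at 118, EPCAM at 40.7 and CLDN7 at 3.64, while NKX2-1, SFTPB, SFTPC and SFTPA1 were not listed. Of these 10, 5 fell: KRT7 fell by 1.05 (SE 0.06), KRT19 fell by 3.91 (SE 0.31), and KRT8, KRT18 and CDH1 stood at -0.43, -0.38 and -0.37. CLDN4 and MUC1 rose by 1.86 (SE 0.34) and 1.45 (SE 0.27), per the authors' deposited table. Of 13 leukocyte, 8 fibroblast and 8 endothelial markers, 4, 5 and 3 were in it, with summed mean signals of 722, 96.2 and 7.16, and CD68 alone was at 602. CD68 fell by 0.75 (SE 0.13), CD4, at a mean signal of 31.2, rose by 7.39 (SE 1.28), and CDH5, at 2.75, fell by 4.96 (SE 1.89, adjusted p = 0.0293), per the authors' deposited table. The other 9 leukocyte markers, PTPRC among them, were not listed in H358. In LLC1 the leukocyte markers Cd68 and Lyz2 summed to between 7.29 and 9.88 in overexpression libraries and between 2.77 and 3.33 in empty vector libraries. The fibroblast marker Col1a2 was at 0.0308 to 0.108 with overexpression and 0.179 to 0.286 with empty vector, no endothelial marker was listed, and the epithelial markers listed, Krt7 and Napsa, summed to between 4.54 and 6.15 with overexpression and between 1.10 and 1.39 with empty vector. Of 13 mitochondrially encoded genes in H358, 8 rose and 1 fell in the authors' deposited table. There 15.6% of all tested genes were called higher and 16.8% lower. The part of these markers in the results was not tested. The LLC1 table gives no read counts and the H358 table no library totals, so the depth behind these values is unknown.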

How the data were processed

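Total RNA was depleted of ribosomal RNA and made into strand-specific libraries, per the labels' protocols. FastQC, STAR, featureCounts, MultiQC and the builds mm10 and hg19 stand in the submitters' processing notes, without roles or versions. How each table was quantified is not given in the sources used here. For LLC1 the authors deposited a signal per gene and library, for rows called changed, and for circular RNAs a signal per library. Their control columns are named NC and were taken as the empty vector group. For H358 the authors deposited a mean signal, a log2 fold change, score columns (its standard error and statistic) and p-values with adjusted p-values, per the file headers.

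LLC1 rows with a mean of 0.5 or more were put on log2(value + 1) and tested in limma 3.58.1 (R 4.3.3) with its trend option and Benjamini-Hochberg adjustment over 2111 rows and a threshold of 0.05. In H358 the authors' adjusted p was taken, which was absent for 1193 genes and present for every member. The design had foreseen count tests if counts were given; they were not. Scripts were tested on simulated data. All 32 listed members passed the filter on low values. All 54 members are named by role. Of each other list, genes were taken from the 2 largest rises and the 2 largest falls in each line, except 1 gene not reported here. Members, lists and tests were chosen with earlier results of these data known.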

Additional observations from a re-analysis of the deposited data

Results flagged for a closer look

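A change that differed between LLC1 and H358 by the test of the difference itself was found for 28 members, all with the lower value in LLC1. Of the 1115 matched genes, 43% were called that way. This share includes genes that rose in LLC1, whereas all 32 listed members fell there. Values are the LLC1 change minus the H358 change on the log2 scale. In the MCM helicase the values were MCM5 (-1.77), MCM3 (-1.50), MCM2 (-1.23), MCM4 (-0.88) and MCM6 (-0.46). For origin licensing they were CDT1 (-1.99) and CDC6 (-0.65). The helicase activation genes were MCM10 (-1.47), GINS1 (-1.30), GINS3 (-1.25) and CDC45 (-1.21). The clamp gene was PCNA (-1.11). The polymerase and primase genes were POLE (-1.55), POLA1 (-1.31), PRIM1 (-1.07) and POLD1 (-0.49). For single-strand binding it was RPA2 (-1.10). Those of nucleotide supply were TYMS (-0.996) and DUT (-0.84). Those of chromatin assembly were UHRF1 (-1.10), CHAF1A (-0.79), CHAF1B (-0.74) and DNMT1 (-0.53). Among G1/S regulators the values were E2F2 (-1.96), CCNE1 (-1.27) and E2F8 (-0.77). The repair genes were BRCA1 (-0.87) and EXO1 (-0.65). With log2(value + 0.1) in LLC1 the differences of EXO1 and BRCA1 were -1.54 and -1.36, over 1.5 times larger. E2F2 was the member with calls in opposite directions. The LLC1 rows had been chosen by the authors as changed, the LLC1 change is on log2(value + 1), and the tables were scaled separately. The part of these in the differences was not tested. With 3 libraries in each group, no search was made for single libraries far from the others.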

How the results depend on the processing

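The 32 LLC1 members stayed lower and past the threshold with pseudocounts of 0.1 and 0.01, without a filter, on median-centred libraries, without the trend, and without each of the 6 libraries in turn (32 called in each). A mean of 2 or more removed Exo1 and left 31. These rows had been chosen by the authors as changed. In the main setting 52.6% of all 2111 tested LLC1 rows were called lower and 47.3% higher. The other settings were not counted over all rows, so the stability is not read as particular to the members. No member was higher in limma, also at an unadjusted p under 0.05 (0). In H358 the 38 lower calls became 35 at an adjusted p of 0.01, where CHAF1B, DUT and GINS3 were lost, 38 with the adjustment over every gene with a p-value, 40 among genes with a mean of 50 or more, and 41 relative to the median of all genes, where CHAF1A, EXO1 and PCNA were gained. With a log2 fold change of 1 or more in size also required, 1 lower call (RRM2) and 0 higher calls remained, since that rule asks for larger changes. At an unadjusted p under 0.05, 44 of 54 members passed in either direction, with E2F2, which rose, among them. The share of all genes at that level was not counted. At the adjusted threshold 16.8% of all tested genes were called lower and 15.6% higher. With a pseudocount of 0.1 in LLC1, 30 members differed between lines in place of 28, the added ones being BLM (-0.55) and CLSPN (-0.66). No paired analysis was possible because the LLC1 control columns carry a group name that does not link them to numbered libraries, and the H358 table holds no values per library. For the same reason no H358 library could be left out. The count-based alternatives were not run because no counts were given.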
